A study of Mus musculus with 4 samples.

Results

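The metabotropic glutamate receptor genes Grm2, Grm3, Grm4, Grm5, Grm6, Grm7 and Grm8 were examined for m6A peaks in mouse brain, m6A being adenosine methylated at the N6 position. These 7 genes, of 21866 protein-coding genes with a coding transcript in GENCODE release M21, were chosen by name, with earlier results of these data known. Every peak of either peak list that overlapped an exon of any annotated transcript of these genes was taken. The peaks came from m6A-seq of whole brain, in which fragmented mRNA was bound by a polyclonal antibody against m6A and sequenced beside input mRNA that had not been bound. All 4 samples, 2 m6A immunoprecipitation (IP) samples and 2 inputs, were of strain C57BL/6J at 4 weeks of age, and the series is described as Prrc2a flox/flox, meaning that both copies of Prrc2a carried target sites for a recombinase. No Cre driver is named in the labels, and there was 1 group, so no condition was compared and no test between groups was possible. Each IP replicate had its own peak list, and each peak its position and its fold enrichment, the linear ratio of IP signal over input signal. No strand and no read counts came with the peaks, so depth was unknown and no counting interval is given.

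Glutamate is the main excitatory transmitter of the brain, and the metabotropic receptors are the G protein-coupled arm of its signalling. Each receptor has a large extracellular domain that binds glutamate, a cysteine-rich linker, a domain that crosses the membrane several times and an intracellular tail. Group I receptors, here Grm5, couple to Gq, which activates phospholipase C and releases calcium from internal stores, and they sit mainly on the postsynaptic side. Group II (Grm2 and Grm3) and group III (Grm4, Grm6, Grm7 and Grm8) couple to Gi/o, which lowers cyclic AMP, and many of them act on presynaptic terminals to restrain release. Grm6 is the exception in place: it is best known from the retina, where it carries the light response of ON bipolar cells. The m6A mark is written mostly within a short motif whose common forms contain GGAC, with the methyl group on the A, and it is found on many brain mRNAs, often near stop codons and in long exons.

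Example sequences from the peaks of these genes are given first. All are in the sense of the mRNA, from 5′ to 3′, on build GRCm38 (mm10), and capitals mark GGAC or, where a T follows, GGACT. A shared interval means the bases common to a replicate 1 peak and a replicate 2 peak. Both group II receptors had a shared interval at the same place in the glutamate-binding domain, within exon 3, and the whole of each is shown because the stretches align with each other over most of their length.
Grm2, chr9:106650969-106651193, minus strand: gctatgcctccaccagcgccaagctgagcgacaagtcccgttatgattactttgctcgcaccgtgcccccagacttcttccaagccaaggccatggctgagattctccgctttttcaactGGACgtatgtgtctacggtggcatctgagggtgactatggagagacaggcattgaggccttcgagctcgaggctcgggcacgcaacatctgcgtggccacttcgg
Grm3, chr5:9570467-9570753, minus strand: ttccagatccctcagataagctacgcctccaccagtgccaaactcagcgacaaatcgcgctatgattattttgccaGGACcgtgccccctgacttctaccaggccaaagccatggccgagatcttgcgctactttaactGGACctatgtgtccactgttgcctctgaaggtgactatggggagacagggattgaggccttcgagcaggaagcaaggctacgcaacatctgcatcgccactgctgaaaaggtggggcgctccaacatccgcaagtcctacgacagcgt
Over the 76 codons that both intervals covered, 186 of 228 bases (81.6%) and 70 of 76 encoded residues (92.1%) were identical, against 68.2% of residues over the whole proteins.

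The GGAC in the middle of the Grm2 interval and the second GGAC of the Grm3 interval fell on the same codon of the protein alignment. Grm5, the group I receptor, had a GGACT at that codon. The 3 windows of 21 bases show how alike the sites are in receptors of different groups.
Grm2, chr9:106651061-106651081, minus strand: tttcaactGGACgtatgtgtc
Grm3, chr5:9570602-9570622, minus strand: ctttaactGGACctatgtgtc
Grm5, chr7:87603164-87603184, plus strand: atacaactGGACTtatgtctc
In Grm2 and Grm3 the site lay inside a shared interval, and in Grm5 it lay in a peak that was in the replicate 1 list only. A site further 5′, in the first coding exon, was held in common by a group II receptor and 2 group III receptors.
Grm2, chr9:106654070-106654090, minus strand: tttgcactGGACcgcatcaac
Grm4, chr17:27502896-27502916, minus strand: tttgccctGGACcgcatcaac
Grm6, chr11:50851343-50851363, plus strand: tacgcgctGGACcgcatcaac
This site was in a shared interval in Grm2 and Grm4, while Grm6 had no peak in either list.

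The 8 GGACT sites that lay inside shared intervals were as follows, shown because GGACT is among the most used forms of the motif and the peaks themselves do not say which base was methylated.
Grm2, exon 3, chr9:106650412-106650432, minus strand: ctctacaaGGACTtcgtgctc
Grm3, exon 4, chr5:9512355-9512375, minus strand: ctagatgtGGACTctattcat
Grm4, exon 9, chr17:27435214-27435234, minus strand: ttggagtgGGACTcaccctgg
Grm4, exon 9, chr17:27434782-27434802, minus strand: tcggtggtGGACTtccaggac
Grm5, exon 9, chr7:88130732-88130752, plus strand: cccttcagGGACTcggtggac
Grm5, exon 9, chr7:88130741-88130761, plus strand: gactcggtGGACTcggggagc
Grm5, exon 9, 3′ UTR, chr7:88131608-88131628, plus strand: agatttctGGACTctttcacc
Grm7, exon 8, chr6:111358249-111358269, plus strand: ttgctgctGGACTtgtgagcc
The first 2 sites of Grm5 were 9 nt apart, 125 and 116 nt before the stop codon, so their windows overlap. All but the Grm5 site in the 3′ UTR were in coding sequence.

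Exons of the 7 genes carried 29 peaks in replicate 1 and 22 in replicate 2. In replicate 1, 20 peaks (69.0%) shared at least 1 base with a peak of replicate 2, against a background of 67.8% over all 31982 replicate 1 peaks on exons of protein-coding genes. In replicate 2, 20 peaks (90.9%) did so with replicate 1, against 76.8% of 28264. The overlaps made 22 shared intervals, in 6 of the 7 genes, where 45.5% of all protein-coding genes had at least 1. RNA level was not measured, so that share counts all 21866 genes and is not a share of genes expressed in brain. Grm6 had no exonic peak in either list. The genes with an interval had 3 to 5 each, with a median of 3.5, and the median over all genes with an interval was 2. Their mRNAs were 3049 to 4711 nt long in the receptors, and the median over all genes with an interval was 3331 nt. Intervals covered between 28.8% (Grm8) and 47.7% (Grm4) of the representative mRNA, chosen for having the longest coding sequence (CDS), and the median of the 6 genes was 31.4%, beside 18.2% over all genes with an interval.

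**Figure D1:**
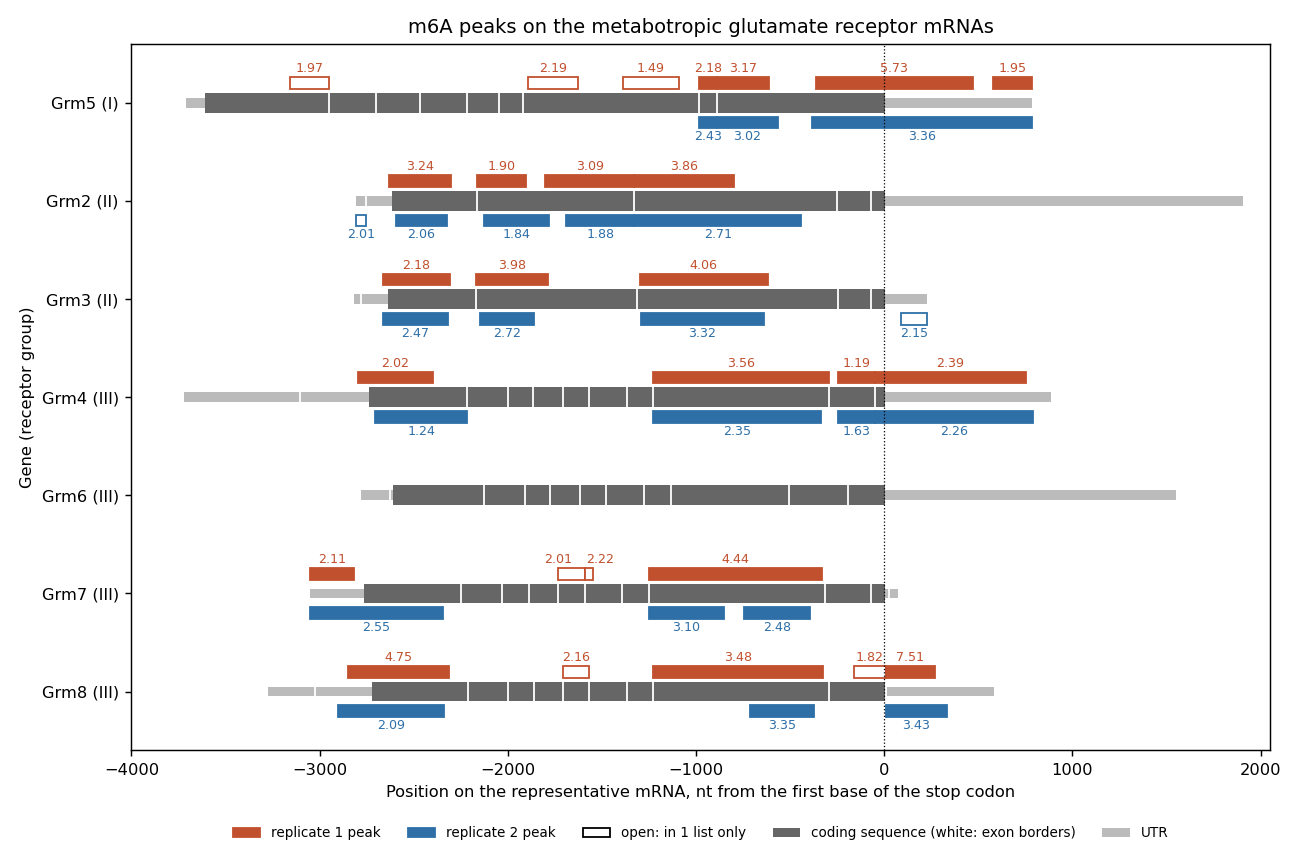
Peaks on the representative mRNA of each gene, by position in nt from the first base of the stop codon. Grey bars are UTRs, dark bars coding sequence with exon borders in white, and boxes above and below are replicate 1 and replicate 2 peaks with their fold enrichment, open where the peak is in 1 list only. Most boxes lie over coding sequence, the strongest (7.51 in replicate 1) begins at the start of the last exon of Grm8, and Grm6 has none.

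Most intervals lay in coding sequence and in long exons inside the genes. The midpoint was in the CDS for 17 of 22 intervals, in the 3′ UTR for 4 and in the 5′ UTR for 1, and the background share in the CDS was 61.8% of 19717 intervals. CDS made up most of each of these mRNAs, from 2619 of 4711 nt in Grm2 to 2769 of 3127 nt in Grm7. Its share of mRNA over all genes was not computed. Only 3 of 22 midpoints were within 200 nt of the stop codon, beside 23% of all intervals, and 2 intervals, in Grm4 and Grm5, covered the stop codon itself. The midpoint of 14 of 22 was in an internal exon of at least 400 nt, where the background share was 15.3%. These genes are built differently from most: internal exons of that length made up 43.9% of the mRNA of the 6 receptors and 7.9% of the mRNA of all 9948 genes with an interval. Last exons held 5 of the 22 midpoints and 23.1% of the receptors' mRNA, while over all genes they held 48.2% of midpoints and 52.5% of the mRNA.

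Among the receptors of group I, Grm5 (chr7:87584168-88134907, plus strand, 9 exons, mRNA of 4500 nt) had 8 peaks in replicate 1 and 3 in replicate 2, and 4 shared intervals. Its strongest peak covered the stop codon, with a fold enrichment of 5.73 in replicate 1, above 94.5% of that list, and of 3.36 in replicate 2, above 87.8%. The shared interval, chr7:88130507-88131336, ran from the end of the coding sequence into the 3′ UTR and held 4 GGAC sites, among them the closely spaced GGACT pair shown above. In replicate 2 this was 1 peak of the whole region, and in replicate 1 a second, weaker peak of 1.95 followed in the 3′ UTR, over the GGACT site at 751 nt after the stop codon.

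The 2 other Grm5 intervals lay in the part of the gene that encodes the intracellular tail. One, at the start of exon 9 (chr7:88129878-88130253), had values of 3.17 and 3.02, among the closest agreements of any matched pair. The other was over exon 8, an exon of 96 nt that is in the transcript of 1203 codons but not in those of 1171 codons, and that sets the longer receptor form, mGlu5b, apart from mGlu5a. The peaks there were 2.18 in replicate 1 and 2.43 in replicate 2, and their shared interval of 372 nt (chr7:88116071-88116442) reached beyond the exon into both introns.
Grm5 exon 8, chr7:88116193-88116288, plus strand: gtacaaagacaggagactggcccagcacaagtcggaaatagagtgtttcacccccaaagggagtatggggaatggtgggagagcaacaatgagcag
The exon is shown because a transcript either has it or lacks it, and these 96 bases held no GGAC. The intronic bases of the shared interval were not searched for the motif.

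The other 4 replicate 1 peaks of Grm5 had no partner in replicate 2. They were in exon 1 (1.97), where the GGACT aligned with the group II site lies, in exon 7 of 940 nt, which encodes most of the membrane-crossing domain (2.19 and 1.49), and 3033 nt after the stop codon in the long last exon of another transcript, Grm5-202 (2.02). All 4 were weaker than the replicate 1 peaks at the start of exon 9 and over the stop codon. The other shared replicate 1 peaks of Grm5, 2.18 over exon 8 and 1.95 in the 3′ UTR, lay within the range of these 4.

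Both genes of group II had at least 1 shared interval in each of the first 3 coding exons. They differed in exon 3, which held 3 intervals in Grm2 and 1 in Grm3. The 3′ part of exon 3 had a matched pair in Grm2 and no peak of either list in Grm3. Grm2 (chr9:106643095-106656082, minus strand, 6 exons, mRNA of 4711 nt) had 4 peaks in replicate 1 and 5 in replicate 2. The replicate 1 and replicate 2 values of exon 2 (586 nt) were 3.24 and 2.06. Exon 3 (838 nt) had 1.9 and 1.84 in its 5′ part and 3.09 and 1.88 in its 3′ part. Exon 4 (1076 nt) had 3.86 and 2.71, the highest values of the gene in both lists. Of the 5 intervals of Grm2, 1 was an overlap of only 18 nt between the end of one peak and the start of the next. A peak over the 5′ end of the gene was in the replicate 2 list alone, at 2.01. The 3′ UTR of 1901 nt, the longest among the representative transcripts of the 7 genes, had no peak in either list.

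Grm3 (chr5:9485541-9725170, minus strand, 6 exons, mRNA of 3049 nt) had its matched peaks over the start codon in exon 2 (609 nt), with 2.18 in replicate 1 and 2.47 in replicate 2, in exon 3 (856 nt), with 3.98 and 2.72, and in exon 4 (1067 nt), with 4.06 and 3.32. Exon 4, which encodes most of the membrane-crossing domain, held the highest value in both lists here as in Grm2. The shared interval ended at residue 607 of 872 in Grm2 and 666 of 879 in Grm3, and left the 3′ part of exon 4 uncovered in both. The exon 4 interval of Grm3 (chr5:9511852-9512503) and that of Grm2 (chr9:106647695-106648226) overlapped over 168 aligned codons, of which 104 encoded the same residue (61.9%). Over the whole proteins the share was 68.2%. A peak of 2.15 in the 3′ UTR of Grm3 was in the replicate 2 list alone. It extended past the annotated end of the gene, which leaves 227 nt of 3′ UTR.

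In group III, Grm4 (chr17:27422387-27521403, minus strand, 11 exons, mRNA of 4607 nt) had 4 peaks in each list, all of them matched. The values were 2.02 and 1.24 in the first coding exon, exon 2, 3.56 and 2.35 in exon 9, 1.19 and 1.63 in exon 10, and 2.39 and 2.26 in exon 11, over the stop codon, for replicates 1 and 2. The exon 10 value was among the weakest of the replicate 1 list, above 0.3% of it, and the exon 2 value of replicate 2 was above 1.5% of that list. The exon 9 interval (chr17:27434575-27435468) covered 894 of the 936 nt of its exon and held 8 GGAC sites, 2 of them GGACT, more than any other interval of the 7 genes.

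Grm7 (chr6:110645581-111567230, plus strand, 11 exons, mRNA of 3127 nt) had 5 peaks in replicate 1 and 3 in replicate 2. Over exon 8, which like exon 9 of Grm4 is 936 nt long, replicate 1 had 1 peak of 4.44 where replicate 2 had 2, of 3.10 and 2.48. Over exon 1 the values were 2.11 and 2.55, and the shared part (chr6:110645531-110645814) also lay on exons of Gm20387, so that without strand the 2 genes could not be told apart there. The replicate 2 peak in exon 1 ran on into the coding sequence, while the replicate 1 peak ended in the 5′ UTR. The other 3 replicate 1 peaks had no partner. They lay over exon 5 (2.01), mostly in an intron with 43 nt on exon 6 (2.22), and in the 3′ UTR of another transcript, Grm7-202 (2.63). The representative transcript has a 3′ UTR of only 71 nt.

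Grm8 (chr6:27275119-28135178, minus strand, 11 exons, mRNA of 3856 nt) had the strongest exonic peak of the family, over the 5′ part of its last exon. The fold enrichment there was 7.51 in replicate 1, above 99% of the list, and 3.43 in replicate 2, above 89%, and both were the highest of their list among the 7 genes. The shared interval of 261 nt (chr6:27275434-27275694) began at the first base of exon 11, just after the stop codon in exon 10, and was 3′ UTR in the representative transcript, Grm8-202, and in a second coding transcript. In Grm8-201 most of it lay outside the exons. These 261 bases held no GGAC. The first coding exon, exon 2, had 4.75 in replicate 1 and 2.09 in replicate 2, and its interval covered the start codon. Exon 9, again of 936 nt, had 3.48 and 3.35. Peaks over exon 6 (2.16) and exon 10 (1.82) were in the replicate 1 list alone.

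Grm6 (chr11:50850685-50866208, plus strand, 11 exons, mRNA of 4330 nt) had no peak over an exon or intron in either list. Its mRNA held 16 GGAC sites, 6 of them GGACT, more GGACT sites than any other of the 7 genes. Its protein shared 66.8% to 70.2% of aligned residues with those of the other group III receptors. Up to the long exon its exon borders lay at the same alignment columns, and the long exon is split into exons of 624 and 312 nt that together make 936 nt. A peak needs RNA of the gene, and in bulk tissue fewer cells of a type, less RNA per cell and less methylation of that RNA cannot be told apart. The input level of Grm6 was not measured here.

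**Figure D2:**
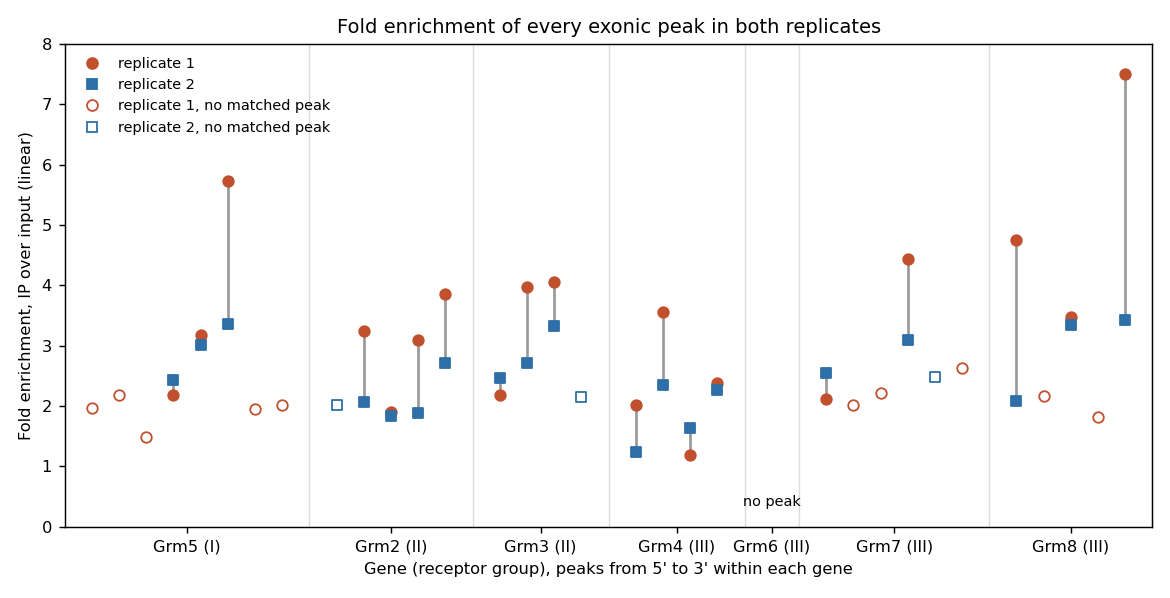
Fold enrichment (IP over input, linear scale from 0) of every exonic peak, with replicate 1 as circles and replicate 2 as squares; lines join peaks that were each other's best overlap, and open symbols are peaks without such a partner. In most of the joined pairs the circle is the higher symbol, and the widest gaps are at both ends of Grm8 and at the stop codon of Grm5.

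The spread between the replicates was read from matched peaks. Pairing each peak with its best overlap in the other list, where that choice was mutual, gave 19 pairs, and 15 of them were higher in replicate 1, beside 78.3% of 21090 pairs over all genes. The replicate 1 value minus the replicate 2 value had a median of 0.51 on the log2 scale (SD 0.46, n = 19 pairs), with a range from -0.45 in exon 10 of Grm4 to 1.19 in exon 2 of Grm8. Over all genes the median was 0.37 (SD 0.47). The order of the values was similar in both lists, with a Spearman's rho of 0.71 over the 19 pairs and 0.64 over all pairs. This is a description over peaks, which share 2 libraries and are not independent. Taking the lower value of each pair as the measure that both lists reached, the median was 2.26 for the receptors and 2.21 for all pairs. By receptor group the median was 3.02 over 3 pairs in group I, 2.18 over 7 pairs in group II and 2.26 over 9 pairs in group III. By gene and exon the highest were the last exon of Grm8 (3.43), the stop codon of Grm5 (3.36), exon 9 of Grm8 (3.35) and exon 4 of Grm3 (3.32), which differ from each other by less than the spread between replicates.

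Peaks in both lists had the higher medians. The shared replicate 1 peaks of the receptors had a median fold enrichment of 3.20 and those in that list alone 2.02, and over all genes these medians were 2.96 and 2.30. In replicate 2 the medians were 2.48 for shared peaks and 2.08 for the 2 that were not shared, beside 2.30 and 1.81 over all genes. The unshared replicate 1 peaks ranged from 1.49 to 2.63 and the shared ones from 1.19 to 7.51, so the ranges overlapped.

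To see whether intervals fell on the same parts of the receptor, the 7 proteins were aligned with each other, giving 1254 columns. Of these columns, 9.6% were covered by a shared interval in no receptor, 27.8% in 1, 33.5% in 2, 10.5% in 3 and 18.6% in 4. Stretches covered in 4 receptors occurred at 3 places. The first, columns 17 to 119, is the start of the glutamate-binding domain, encoded by the first coding exon, and had shared intervals in Grm2, Grm3, Grm4 and Grm8, that is, in receptors of groups II and III. The second, columns 528 to 654, had shared intervals in Grm2, Grm3, Grm4 and Grm7 and lies where the long exon of group III begins. The third was only 3 columns wide, from 702 to 704, and was covered in Grm3, Grm4, Grm7 and Grm8.

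The first coding exon, of 586 to 887 nt in the 6 receptors with peaks, held a shared interval in Grm2, Grm3, Grm4, Grm7 and Grm8, which in Grm7 lay in its 5′ UTR part, and a replicate 1 peak alone in Grm5. The long exon of the membrane-crossing domain had peaks in the same way. It encodes 5 of the hydrophobic stretches that a Kyte-Doolittle scan found in each protein: exon 4 in Grm2 and Grm3, exon 7 in Grm5, exon 9 in Grm4 and Grm8 and exon 8 in Grm7. In Grm2, Grm3, Grm4, Grm7 and Grm8 it held at least 1 shared interval, with lower values of a pair of 2.71, 3.32, 2.35, 3.10 and 3.35. In Grm5 it held only the unshared replicate 1 peaks. In Grm2 the shared interval covered only the first hydrophobic stretch, and in Grm3 the first 2. Columns 528 to 654 lay mostly before the first such stretch of the long exon. That stretch began at column 622 in Grm2 and Grm3, 621 in Grm4 and 620 in Grm7. In Grm8 the replicate 1 peak covered most of the exon, but the replicate 2 peak lay in its 3′ part, so that the shared interval began at alignment column 702. Where the intervals of 2 group III receptors overlapped in this exon, 69.5% to 73.9% of bases and 70.1% to 82.6% of residues were identical.

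**Figure D3:**
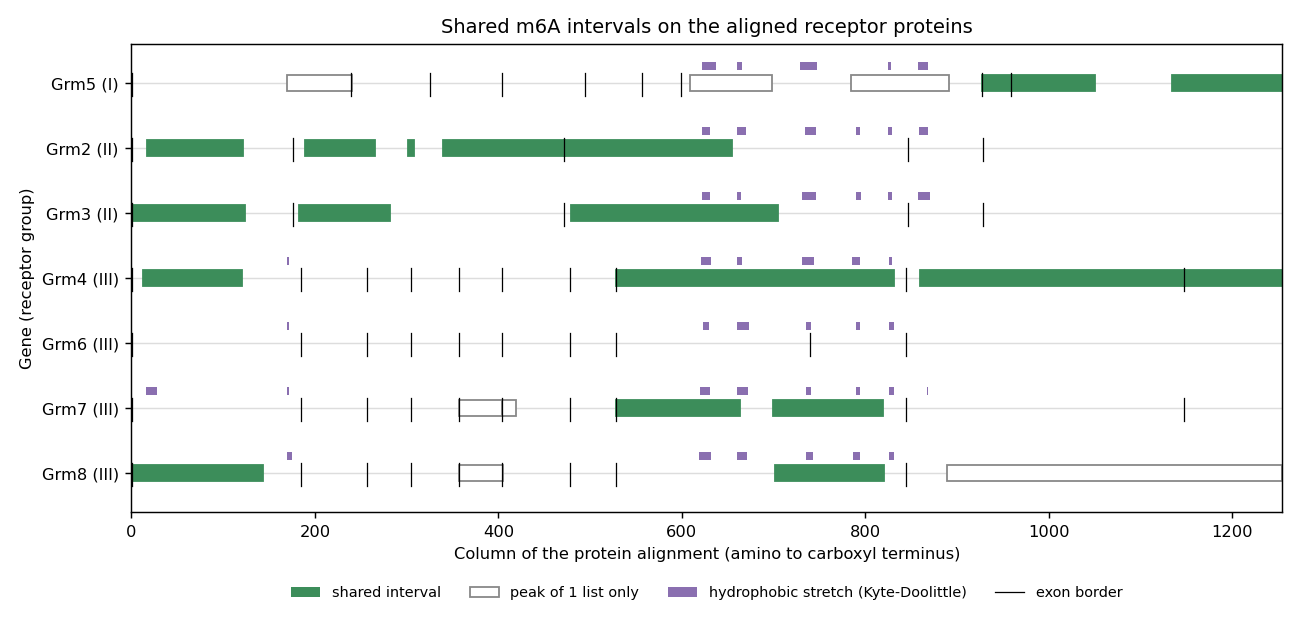
Shared intervals (filled) and peaks of 1 list only (open) on the alignment of the 7 receptor proteins, by alignment column from the amino to the carboxyl terminus, with exon borders as black lines and hydrophobic stretches in purple. Filled boxes stack up over columns 17 to 119 and 528 to 654, and the wide boxes at the right end span gap columns opposite the long tail of Grm5.

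GGAC was present in the exonic bases of 15 of the 22 intervals, and intronic bases were not searched. The 7 mRNAs held 107 sites of GGAC, searched on the mRNA strand, 16 of them in Grm6. In the 6 genes with intervals, 38 of 91 sites (41.8%) were in shared intervals, which made up 35.2% of the mRNA of these genes. The density was 4.53 GGAC per kb within intervals and 3.43 per kb outside, and over all genes with an interval 6.08 and 3.86. GGACT occurred 24 times, 6 of them in Grm6, and in the 6 genes with intervals 8 of 18 sites (44.4%) were in intervals, with a density of 0.95 per kb within and 0.65 outside, and 1.61 and 0.98 over all genes. GGACT was in 6 of 22 intervals, where the background was 39.3%, and 43.4% for intervals of like length. For GGAC, 79.9% of intervals of like length held it. A motif match is not a measured methylation site, since the median shared peak of the receptors was 389 nt wide in replicate 1 and 394.5 nt in replicate 2.

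By gene, Grm4 had the most GGAC sites in intervals, 14 of 27, and the highest density there, 6.37 per kb beside 5.39 outside. Grm5 had the most GGACT sites in intervals, 3 of 5. Grm8 had no GGACT within a shared interval, and its only GGACT (chr6:27363537-27363557) lay in exon 9 in the part covered by replicate 1 alone. Grm7 was the 1 gene with a lower GGAC density within intervals than outside, 4.06 against 5.60 per kb.

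**Figure D4:**
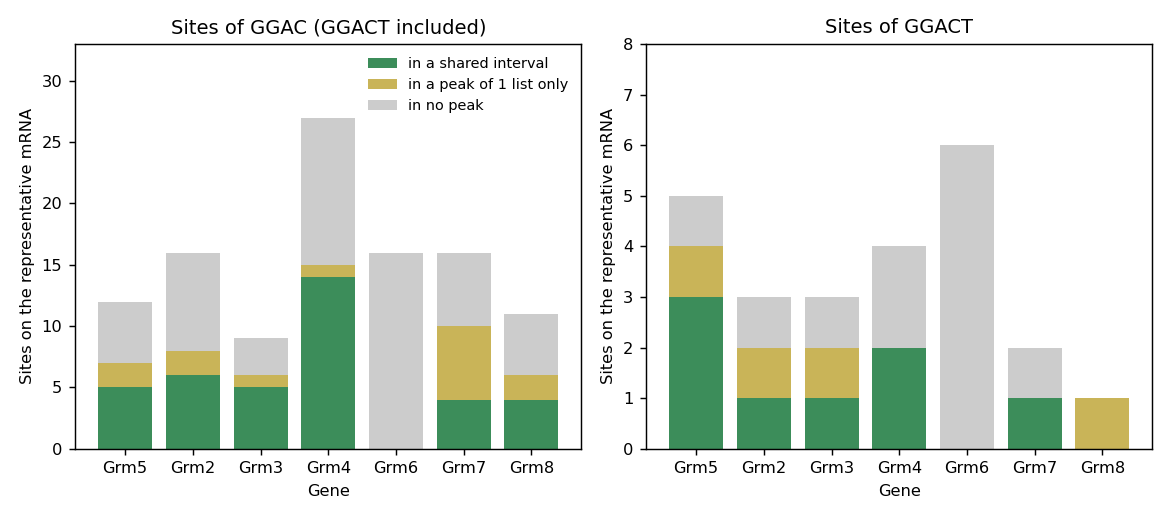
Number of GGAC sites (left, GGACT included) and GGACT sites (right) on the representative mRNA of each gene, stacked by whether the site lies in a shared interval, in a peak of 1 list only or in no peak. Grm4 has the most GGAC sites in shared intervals (14), Grm5 the most GGACT sites (3), and all 16 GGAC sites of Grm6 are in no peak.

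The coding motif sites were then compared between receptors on the alignment. The coding GGAC sites, 76 of the 107, fell on 51 codons of the alignment. Of these codons 34 had the site in 1 receptor and 17 in at least 2, among them 6 in 3 receptors and 1 in 4. The codon with 4, at column 521, had the site in Grm4, Grm5, Grm7 and Grm8, offset by 1 base in Grm5, and no peak covered it in any of them. In the 2 sets printed above, the site was in a peak in every receptor but Grm6. Those 2 sets are examples and do not stand for the other codons. At column 222, Grm4, Grm6 and Grm8 had GGAC without a peak. Sites without a peak in any receptor that had them also lay at column 411, as GGACT in Grm4 and Grm6. The same held at column 494, in Grm7 and Grm8.

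The partners and effectors of these receptors were read from a list of 30 genes, made up of scaffolds, G proteins, enzymes, channels, arrestins and glutamate transporters. Of their 118 replicate 1 peaks 82.2% were shared, and of their 114 replicate 2 peaks 83.3%, beside 67.8% and 76.8% of all exonic peaks. All 30 genes had a shared interval, 98 in all, against 45.5% of all protein-coding genes. The 4 with the highest value that both lists reached were Kcnj3, a subunit of the G protein-gated potassium channel (6.10 in replicate 1 and 4.23 in replicate 2, in the 3′ UTR), Homer1, a postsynaptic scaffold that binds group I receptors (4.11 and 5.56), Plcb1, a phospholipase C activated by Gq (4.67 and 4.06), and Adcy1, a calcium-stimulated adenylyl cyclase (5.31 and 3.20, in the 3′ UTR). The Homer1 interval, chr13:93366466-93366719, was not in an exon of the representative transcript but in the last exon of shorter forms such as Homer1-205, in the 3′ UTR. The midpoint of the Plcb1 interval was outside the exons of its coding transcripts.

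The ionotropic receptor genes, the ligand-gated arm of glutamate signalling (16 genes for NMDA, AMPA and kainate receptor subunits), all had a shared interval, against 45.5% of all protein-coding genes. Their peaks were shared at 73.0% in replicate 1 and 75.4% in replicate 2, beside 67.8% and 76.8% of all exonic peaks. Their median was 2.5 intervals per gene, beside 3 for the 7 metabotropic genes with Grm6 counted as 0. Markers of cell types were read against the same 45.5%. All 16 markers of neurons, oligodendrocytes, astrocytes, microglia and endothelium that were examined had a shared interval. None of 4 markers of tissues outside the brain (Alb, Apoa1, Ckm and Ins2) had a peak in either list. The gene lists, like the 7 receptor genes, were chosen with earlier results of these data known. Their counts are thus a description and do not test the tissue label.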

How the data were processed

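m6A-seq peaks of 2 IP samples of mouse brain were used. The 2 input samples had no values of their own here. Per the methods, the authors trimmed reads with Cutadapt and Trimmomatic, aligned them to mm10 with TopHat (TopHat2 2.0.9 in the submitters' processing notes), kept uniquely mapped reads and called peaks with MACS2 for each replicate against its own input, without a fragment model, with all duplicates kept and a limit on the false discovery rate. With each peak's coordinates the authors deposited its fold enrichment, the ratio of IP to input on a linear scale. Kept duplicates can raise it, and it depends on input coverage. Peaks were called on the genome, so a peak over a short exon can reach into introns, and no strand was given.

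Peaks were assigned to genes by overlap with GENCODE M21 exons (GRCm38), and placed by the midpoint on the transcript with the longest CDS. Peaks of both lists were shared from 1 bp of overlap, and bedtools 2.31.1 gave the same counts. Python 3.11.15, pandas 2.3.3 and Biopython 1.88 were used, and proteins translated from the reference were aligned with MAFFT 7.526. Hydrophobic stretches are windows of 19 residues with a mean Kyte-Doolittle value of at least 1.6, joined where under 10 residues apart. Motif sequences are from the GENCODE transcripts, and printed intervals were checked against the RefSeq GRCm38.p6 genome. Overlap, position and motif steps were tested on simulated peaks. The 7 genes and the gene lists were chosen with earlier results of these data known. All 7 genes are named, and of the 30 partners the 4 with the highest value reached in both lists. Alternatives covered the overlap rule, a fold enrichment of at least 2, the exons used, the stop codon window, the transcript, the motif and 1 list at a time.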

Additional observations from a re-analysis of the deposited data

Results flagged for a closer look

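Peaks outside the exons were not part of the counts above, and the input samples had no values of their own beside which to read them. Introns of the 7 genes held 20 peaks in replicate 1 and 6 in replicate 2, none on exons of other genes. Of these, 3 in replicate 1 (15%) and 3 in replicate 2 (50%) overlapped each other. Over all peaks that touched no exon of a protein-coding gene, 21.8% of 6551 in replicate 1 and 79.4% of 1870 in replicate 2 were shared, and over exonic peaks 67.8% and 76.8%. The 17 intronic peaks in the replicate 1 list alone had fold enrichments from 1.95 to 8.06, with a median of 4.35, and the highest were in Grm7 (8.06), Grm5 (7.04) and Grm4 (5.54). The 3 in the replicate 2 list alone ranged from 1.94 to 2.55. Among the shared ones the strongest was in Grm4 (chr17:27444455-27444904), with 5.41 in replicate 1 and 2.95 in replicate 2, above the values of every exonic peak of that gene. The others were in Grm5 (chr7:87810812-87811073), with 3.20 and 3.11, and in the first intron of Grm7 (chr6:110646828-110647183), with 1.9 and 2.69, 442 nt from the nearest exon.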

How the results depend on the processing

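Of 45 alternative values for 9 results, 40 were within 1.5 times the main count or within the spread between pairs. The 5 that moved were as follows. With midpoints within 100 bp as the rule, 13 peaks of replicate 1 and 13 of replicate 2 were shared, in place of 20 each. A window of 100 nt around the stop codon held 1 interval in place of 3. With GGAC as the motif 38 sites were in intervals in place of 8 GGACT, and with intervals cut to 100 nt around the midpoint 0 GGACT sites were left. Under a 50% overlap 5 genes had an interval, Grm7 no longer among them, and the same count held for midpoints. With 1 list in place of both, the genes with peaks stayed at 6, the intervals or peaks numbered 22 to 29, those near the stop codon 3 to 4, those in the CDS 17 to 21 and the GGACT sites 9 to 11. The representative transcripts of Grm3 and Grm7 have short 3′ UTRs, so peaks further 3′ have no position on them. The cause of these moves was not tested. No paired analysis was possible because the input samples have no values of their own and the peaks come from 1 group.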

Other observations

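Downstream of Grm3, 7186 nt past its nearest exon and on no exon of another gene, both lists had a peak (chr5:9478034-9478355 in replicate 1), with a fold enrichment of 4.07 in replicate 1 and 2.36 in replicate 2. It was the 1 shared peak within 10 kb downstream of any of the 7 genes that lay on no exon of another gene. The shared peaks downstream of Grm6 lay on exons of Zfp454.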
